A study of Homo sapiens with 12 samples.

Results

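The genes of the ERBB receptors and of the EGF-like growth factors that bind them were followed in KYSE150, a widely used human cell line that was derived from an esophageal squamous cell carcinoma. They were chosen by symbol from the count table: the receptors EGFR, ERBB2 and ERBB3 and the ligands AREG, HBEGF, TGFA, BTC, EREG and EPGN, 9 of 24302 features. RNA was sequenced from 12 libraries, 3 in each of 4 groups. The cells carried GFP-TFAP2β-Mut_IDR3 (Mut_IDR3), GFP-TFAP2β-ΔIDR3 (written dIDR3), GFP-TFAP2β of normal sequence (WT) or GFP alone, so that GFP was common to all groups. The study describes both altered forms as deficient in phase separation and asks which genes lie downstream of that property. TFAP2β belongs to the AP-2 transcription factors, and the letters IDR stand for intrinsically disordered region. How the cells were made to carry the constructs, and whether a group is a single clone, is not given in the sources used here. Nothing states that the 3 libraries of a group came from separate cultures, and p-values here therefore rest on the spread among these libraries, which may be technical.

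ERBB receptors are receptor tyrosine kinases that pair on binding a ligand and signal through the RAS-ERK and PI3K-AKT arms. Their ligands are made as membrane-bound precursors, and proteases of the ADAM family release the active part. EGFR is commonly abundant in squamous epithelium and in its tumours, and AREG, HBEGF and TGFA are known as growth factors that keratinocytes make for their own use. AP-2 factors bind GC-rich sites, and ERBB2 and EGFR have long been described as genes that AP-2 factors can bind.

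The libraries held 30.7 to 43.5 M counts. Levels are given as CPM, counts per 1000000 of the library total after TMM scaling. TFAP2B, the gene of the constructs, had 687, 732 and 687 CPM in Mut_IDR3 libraries, 739, 742 and 632 in dIDR3 libraries, 285, 232 and 323 in WT libraries and 0, 0.279 and 0.0924 in GFP libraries. RNA from the construct and from the cells' own gene cannot be told apart, and both mutants carried more of it than WT, with 2.5-fold for Mut_IDR3 and 2.51-fold for dIDR3. All 9 listed markers of squamous epithelium reached 1 CPM in at least 1 library. Their summed levels were 4878 to 5048 CPM in Mut_IDR3, 4095 to 4344 in dIDR3, 6159 to 7226 in WT and 4860 to 5069 in GFP cells. Single markers went both ways in WT against GFP cells, with 4 called higher and 5 lower and a median of -0.24. Of all genes tested, 27.7% were called higher and 27.1% lower there. In dIDR3 against GFP cells 0 markers were called higher and 7 lower, beside 15.6% and 13.4% of all genes. Markers of glandular epithelium, fibroblasts and leukocytes each summed to at most 0.556 CPM in any library, and those of endothelium to at most 1.8 CPM. Mitochondrially encoded mRNAs took 8.2 to 8.63% of counts in Mut_IDR3, 7.67 to 7.79% in dIDR3, 5.38 to 6.09% in WT and 9.92 to 10.7% in GFP libraries. Across genes, the GC content of the longest transcript and the log2 fold change of WT against GFP had a Spearman rho of 0.51, a description over 12724 genes that are not independent replicates. For the 9 genes, the values below are therefore also given with that trend removed wherever it ended or turned a call. For other genes of the pathway, this is done for some of the comparisons only.

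The 9 genes lie on 6 chromosomes of GRCh38. EPGN (chr4:74308473-74315307), EREG (chr4:74365143-74388751), AREG (chr4:74445134-74455009) and BTC (chr4:74744759-74794686) are neighbours on chromosome 4, the first 3 on the plus strand and BTC on the minus strand. HBEGF lies at chr5:140332843-140346631 and TGFA at chr2:70447280-70554193, both on the minus strand. The receptor genes lie at chr7:55019021-55211628 (EGFR), chr17:39687914-39730426 (ERBB2) and chr12:56076799-56103505 (ERBB3), all on the plus strand. The 250 bases before the transcription start were read from RefSeq (GRCh38.p14) for 8 of the 9 genes, with 10 windows in all, since EGFR and TGFA each had 2 starts. EGFR was called lower in WT than in GFP cells, a direction that depended on the processing, as given below. The windows of AREG and HBEGF, the called ligands with the largest changes, and of EGFR are shown 5′ to 3′ on the strand of the gene. They span chr4:74444886-74445135 (plus strand), chr5:140346604-140346853 (minus strand) and chr7:55018767-55019016 (plus strand). The windows of AREG and HBEGF end just inside the first exon of GENCODE v29, in its 5′ UTR, and that of EGFR ends just before the first exon. Capitals mark matches to the AP-2 motif GCCNNNGGC or to the CRE motif TGACGTCA, the element that CREB-type factors bind.
AREG promoter: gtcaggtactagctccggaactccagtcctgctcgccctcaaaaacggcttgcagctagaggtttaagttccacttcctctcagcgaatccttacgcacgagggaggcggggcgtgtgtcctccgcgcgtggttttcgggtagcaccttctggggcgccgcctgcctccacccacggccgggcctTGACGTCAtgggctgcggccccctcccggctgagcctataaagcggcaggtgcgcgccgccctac
HBEGF promoter: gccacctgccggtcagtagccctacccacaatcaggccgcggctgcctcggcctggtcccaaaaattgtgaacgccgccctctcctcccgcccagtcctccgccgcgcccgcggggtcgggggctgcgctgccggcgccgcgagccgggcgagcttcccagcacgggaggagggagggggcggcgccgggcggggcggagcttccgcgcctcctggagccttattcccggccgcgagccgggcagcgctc
EGFR promoter: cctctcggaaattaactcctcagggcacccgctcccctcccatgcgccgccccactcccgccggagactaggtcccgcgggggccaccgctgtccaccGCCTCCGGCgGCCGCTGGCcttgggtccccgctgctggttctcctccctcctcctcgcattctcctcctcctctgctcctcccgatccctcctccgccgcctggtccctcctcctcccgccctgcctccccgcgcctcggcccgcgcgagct
The AREG window held 1 CRE motif, 65 to 58 bases before the start, and no AP-2 motif. The HBEGF window held no match to AP-2, CRE or the AP-1 motif TGANTCA, although 76.4% of its bases were G or C. The EGFR window held 2 AP-2 motifs that do not overlap, at 152 to 144 and 142 to 134 bases before the start. In TGFA, the window before the first start held 1 AP-2 motif, GCCGGGGGC, 61 to 53 bases before it. The AP-1 motif occurred in the window before the second EGFR start, as TGAGTCA 232 to 226 and TGACTCA 136 to 130 bases before it, and in that of ERBB2, as TGATTCA 222 to 216 bases before the start. The other windows, those of EPGN, EREG and BTC and the second of TGFA, held no match. Both strands were searched. Of 35116 RefSeq windows of the same length, 19.8% held the AP-2 motif, 6.57% the AP-1 motif and 1.65% the CRE motif, so the AP-2 match is common and the CRE match is not. A match describes letters only.

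AREG, HBEGF and TGFA were raised in WT cells, and in neither mutant did they differ detectably from GFP cells. AREG, which encodes amphiregulin, a ligand of EGFR, had 15.3, 15.3 and 13.9 CPM in Mut_IDR3 libraries, 17.3, 17.5 and 15.7 in dIDR3 libraries, 54, 54.5 and 45 in WT libraries and 12.6, 16.5 and 14.2 in GFP libraries. In bulk RNA, more RNA in every cell and more cells with the RNA cannot be told apart. Every WT library lay above every other library, and the lowest WT library stood well clear of the highest of the other 3 groups. AREG rose 3.54-fold in WT against GFP cells (log2 change 1.83, SE 0.11, adjusted p = 4.65e-09, edgeR quasi-likelihood test with Benjamini-Hochberg adjustment, as for all adjusted p-values here). Against WT cells it was lower in both mutants, with a log2 difference of -1.78 for Mut_IDR3 (adjusted p = 7.65e-09) and -1.60 for dIDR3 (adjusted p = 1.56e-08). Against GFP, the log2 difference was 0.04 for Mut_IDR3 (95% interval -0.19 to 0.27, adjusted p = 0.829) and 0.22 for dIDR3 (0.00 to 0.45, adjusted p = 0.129).

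HBEGF encodes heparin-binding EGF-like growth factor, a ligand of EGFR and ERBB4. Its levels were 4.4, 3.21 and 3.67 CPM in Mut_IDR3 libraries, 3.74, 2.99 and 3.87 in dIDR3 libraries, 12.5, 15.2 and 13.6 in WT libraries and 3.36, 3.26 and 3.56 in GFP libraries. The 3 WT libraries again stood apart, while the other 9 libraries overlapped with each other. HBEGF had the largest change of the ligands called in WT cells, at 4.05-fold over GFP (log2 change 2.02, SE 0.16, adjusted p = 8.56e-08). The log2 difference from WT cells was -1.87 for Mut_IDR3 (adjusted p = 2.95e-07) and -1.96 for dIDR3 (adjusted p = 1.27e-07). The intervals against GFP, -0.20 to 0.48 for Mut_IDR3 and -0.28 to 0.40 for dIDR3, were wider than for AREG, and HBEGF had 105 to 154 counts in a GFP library.

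TGFA encodes transforming growth factor alpha, another EGFR ligand. It had 46, 47.7 and 48.7 CPM in Mut_IDR3 libraries, 47.2, 52.7 and 48.1 in dIDR3 libraries, 88.7, 98.1 and 89.6 in WT libraries and 46, 42.7 and 48.8 in GFP libraries. WT libraries lay above all others with a wide gap. TGFA rose 2.01-fold in WT against GFP cells (log2 1.01, SE 0.07, adjusted p = 2.89e-08), and differed from WT by -0.96 in Mut_IDR3 and by -0.90 in dIDR3 cells (adjusted p = 7.35e-08 and 9.55e-08). The difference from GFP was 0.05 for Mut_IDR3 (-0.10 to 0.20, adjusted p = 0.662) and 0.11 for dIDR3 (-0.04 to 0.26, adjusted p = 0.281). A part of the TGFA counts is uncertain because TGFA-IT1 overlaps the gene and how overlapping reads were counted is not stated. The calls of these 3 ligands for WT over GFP cells and for both mutants below WT cells held under all 24 other ways of processing that were run.

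**Figure D1:**
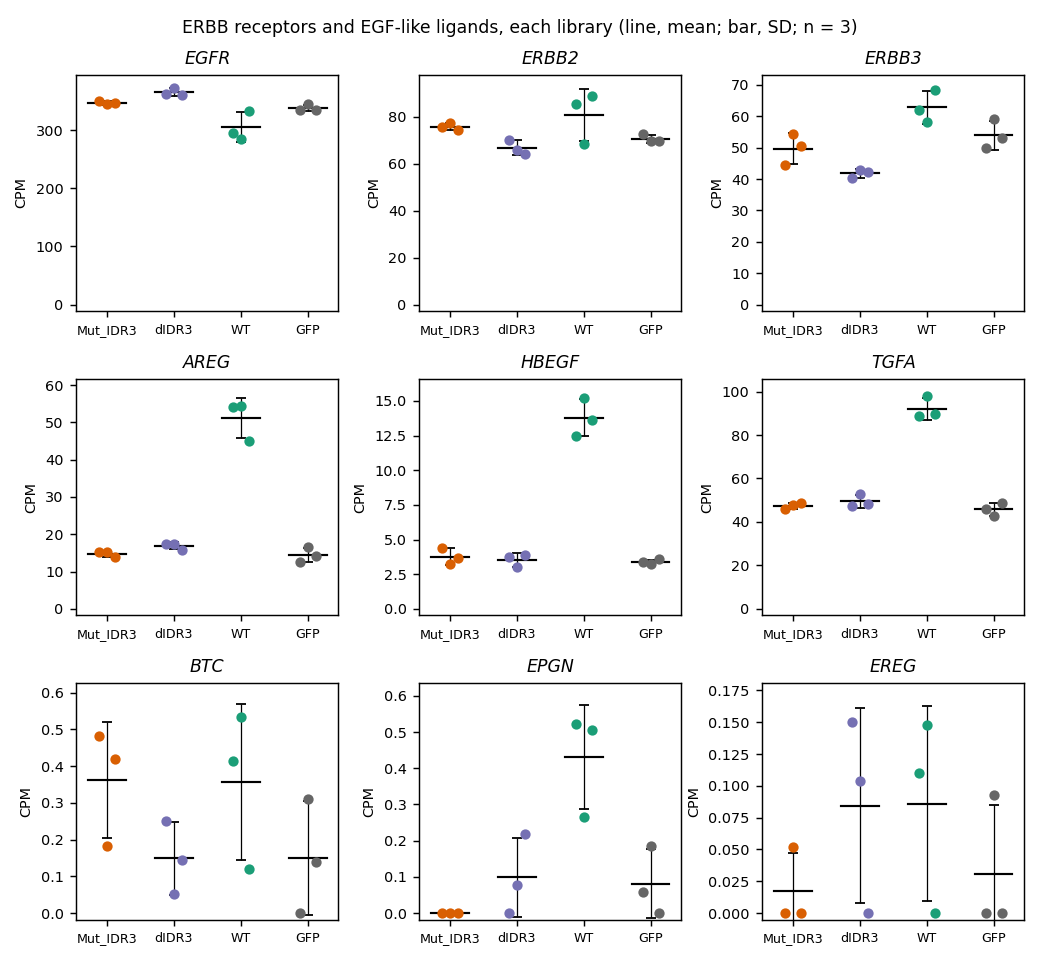
CPM of each of the 9 genes (vertical axes, from 0, with their own scale) in the 3 libraries of each group, in the order Mut_IDR3, dIDR3, WT and GFP; points are libraries, lines are means and bars are SDs. The WT libraries of AREG, HBEGF and TGFA lie above all libraries of the other groups, and EGFR lies between 285 and 372 CPM throughout.

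The other 3 ligands were close to the limit of detection. BTC, which encodes betacellulin, a ligand of EGFR and ERBB4, passed the filter on low counts with sums of 40 counts in Mut_IDR3, 18 in dIDR3, 38 in WT and 16 in GFP cells. It was called in none of the 6 comparisons, and its log2 fold change of 1.23 in WT against GFP cells had an interval of -0.71 to 3.18. EPGN, which encodes epigen, and EREG, which encodes epiregulin, did not pass the filter. EPGN had no count in any Mut_IDR3 library, 0, 3 and 9 in dIDR3 libraries, 19, 9 and 21 in WT libraries and 2, 6 and 0 in GFP libraries. Most of its counts therefore came from WT cells, in all 3 libraries. Per total counts, the ratio of WT to GFP cells was 5.68 (95% counting interval 2.67 to 13.9), that of dIDR3 to WT cells was 0.24 (0.116 to 0.458), and Mut_IDR3 cells were at least 15.7-fold lower than WT cells when the 0 is set to a floor of 3 counts over the group. These intervals cover counting error only. Fitted without the filter, EPGN had an adjusted p of 0.173 in WT against GFP cells, 0.00504 in Mut_IDR3 against WT cells and 0.232 in dIDR3 against WT cells. EREG had sums of 2, 10, 9 and 3 counts in Mut_IDR3, dIDR3, WT and GFP cells, too few to compare.

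The receptors differed less between groups, by -0.59 to 0.26 on the log2 scale over all comparisons. EGFR, the receptor of all 6 ligands above, had 350, 344 and 346 CPM in Mut_IDR3 libraries, 362, 372 and 360 in dIDR3 libraries, 295, 285 and 333 in WT libraries and 334, 344 and 334 in GFP libraries. The 3 WT libraries were the lowest, and the highest of them, replicate 3, came close to the GFP libraries. EGFR was called lower in WT than in GFP cells, at -0.15 on the log2 scale (0.903-fold, adjusted p = 0.0282), and higher than WT by 0.19 in Mut_IDR3 (adjusted p = 0.0103) and by 0.26 in dIDR3 cells (adjusted p = 0.000814). With the trend of transcript length removed, EGFR was called higher in WT than in GFP cells by 0.18 (adjusted p = 0.00256), and the differences of the mutants from WT were 0.01 (adjusted p = 0.94) and 0.04 (adjusted p = 0.463). The call against GFP was also lost without any 1 GFP library or without WT replicate 1 or 2, with adjusted p-values of 0.0508 to 0.109. EGFR-AS1 overlaps EGFR on the opposite strand, so a part of these counts is uncertain.

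ERBB2, the receptor with no known ligand and the preferred partner of the others, had 75.6, 77.5 and 74.4 CPM in Mut_IDR3 libraries, 70.3, 66 and 64.3 in dIDR3 libraries, 85.7, 68.3 and 88.8 in WT libraries and 72.8, 69.8 and 69.6 in GFP libraries. WT replicate 2 lay below all 3 GFP libraries, and the other 2 WT libraries lay above them. The log2 difference of 0.19 between WT and GFP cells was not called (adjusted p = 0.0538). It was 0.30 without WT replicate 2 (adjusted p = 0.000347) and -0.16 with the GC trend removed (adjusted p = 0.0257), so its direction depended on the processing, and 9 of 24 alternatives gave a call. ERBB2 was lower in dIDR3 than in WT cells, at -0.28 (adjusted p = 0.00998), with adjusted p-values of 0.0505 without WT replicate 1, 0.0501 without WT replicate 3 and 0.788, at a difference of -0.02, with the GC trend removed. MIEN1 and PGAP3 overlap ERBB2 on the opposite strand.

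ERBB3, a receptor of the neuregulins with little kinase activity of its own, had the widest spread of group means among the receptors. Its levels were 44.5, 54.2 and 50.4 CPM in Mut_IDR3 libraries, 40.3, 43 and 42.2 in dIDR3 libraries, 62.1, 58.1 and 68.4 in WT libraries and 50, 59.1 and 53 in GFP libraries. The dIDR3 libraries were the lowest of all 12, and WT and GFP libraries overlapped. The log2 difference was -0.59 in dIDR3 against WT cells (0.666-fold, adjusted p = 5.09e-05), -0.37 in dIDR3 against GFP cells (adjusted p = 0.00566) and -0.34 in Mut_IDR3 against WT cells (adjusted p = 0.00551). These 3 calls held under all 24 alternatives. The rise of 0.22 in WT against GFP cells (adjusted p = 0.0459) did not: it was 0.00 with the GC trend removed (adjusted p = 0.969) and its call was also lost without GFP replicate 1 or 3, without WT replicate 1 or 3 and without Mut_IDR3 replicate 3 (adjusted p-values of 0.0592 to 0.172), and with upper-quartile scaling (0.0712) or only the groups compared (0.0718). AC034102.2 overlaps ERBB3. ERBB3 was the only one of the 9 genes called in a mutant against GFP cells, apart from EGFR with the length trend removed (0.19 in Mut_IDR3, 0.23 in dIDR3), EGFR in dIDR3 cells without WT replicate 3 (0.11) and ERBB2 in dIDR3 cells with the GC trend removed (-0.18).

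Between the mutants, Mut_IDR3 against dIDR3 cells, none of the 7 genes tested was called with edgeR, while 10.8% of all genes were, 5.54% higher and 5.24% lower. At an unadjusted p under 0.05 there were 2, ERBB2 and ERBB3, DESeq2 called 1 and limma-voom called 0. The difference was 0.25 for ERBB3 (0.06 to 0.44, adjusted p = 0.0847) and 0.18 for ERBB2 (0.01 to 0.35, adjusted p = 0.171), with all 3 Mut_IDR3 libraries above all 3 dIDR3 libraries for both genes. For AREG the difference was -0.18 (-0.41 to 0.04), for HBEGF 0.09 (-0.25 to 0.42) and for TGFA -0.06 (-0.21 to 0.10).

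**Figure D2:**
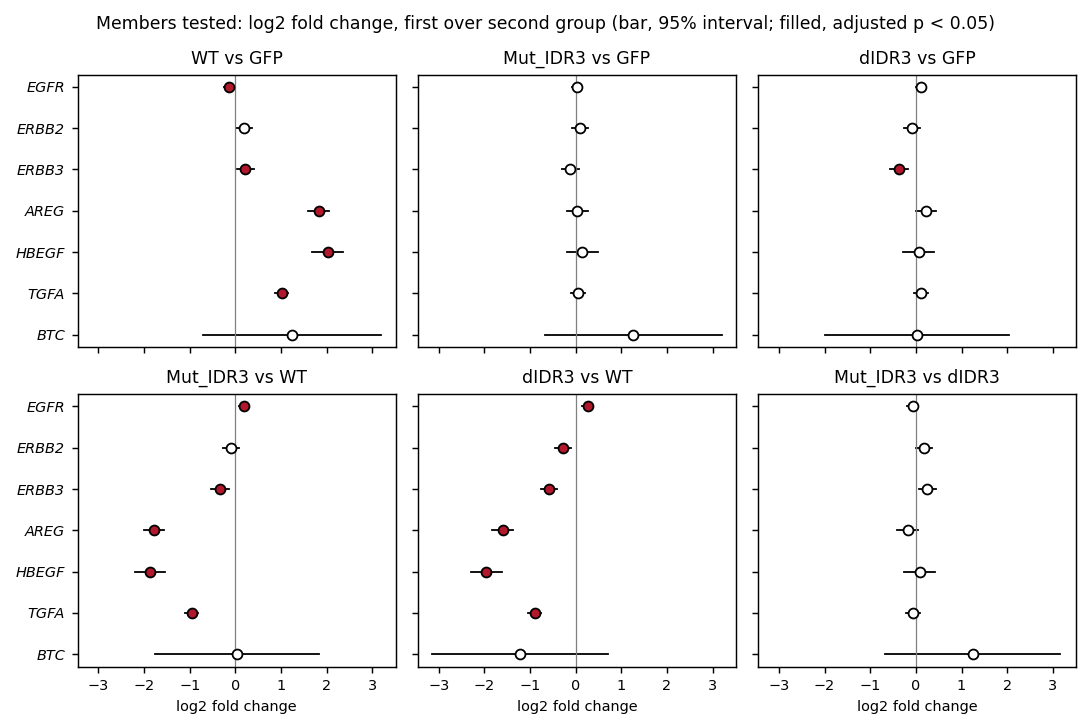
Log2 fold change (horizontal axis) of the 7 genes tested, in 6 panels for the 6 comparisons, first group over second; bars are 95% intervals and filled points have an adjusted p under 0.05. AREG, HBEGF and TGFA are far right of 0 in WT against GFP and far left in each mutant against WT, while their intervals for the mutants against GFP span or touch 0.

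Counted over the 7 genes tested of 9, WT against GFP cells gave 4 higher and 1 lower, where 54.9% of all 14792 genes tested were called, 27.7% higher and 27.1% lower. The median log2 fold change was 1.01, against -0.01 over all genes tested. Mut_IDR3 against GFP cells gave 0 calls by edgeR, DESeq2 and limma-voom, also 0 at an unadjusted p under 0.05, where edgeR called 21.1% of all genes; the median was 0.05. In dIDR3 against GFP cells, 0 were called higher and 1 lower, where 29.0% of all genes were called in either direction; the median was 0.06. Mut_IDR3 against WT cells gave 1 higher and 4 lower, where 44.1% of all genes were called, 23.2% higher and 20.9% lower, with a median of -0.34. In dIDR3 against WT cells, 1 was called higher and 5 lower, where 52.3% were called, 27.2% higher and 25.0% lower, with a median of -0.90. So large a share of all genes was called that the counts by themselves do not set the members apart. Comparisons against GFP share their GFP libraries and comparisons against WT share their WT libraries.

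Per kilobase of the longest coding transcript, the order of the genes differed between groups. Which transcripts the cells used was not measured. The order of genes within a group, and the sums below, therefore depend on the lengths taken, such as 1.24 kb for AREG and 9.82 kb for EGFR. In WT cells AREG had rank 1, with 41.3 ± 4.31 CPM per kb (SD, n = 3), above EGFR with 31.0 ± 2.57, and their libraries did not overlap. In the other groups EGFR had rank 1, with 35.3 ± 0.356 in Mut_IDR3, 37.1 ± 0.662 in dIDR3 and 34.4 ± 0.583 in GFP cells, followed by ERBB2, and AREG had rank 3 with 12 ± 0.632, 13.6 ± 0.796 and 11.6 ± 1.56. AREG and TGFA overlapped in Mut_IDR3 and GFP cells, TGFA and ERBB3 in GFP cells, and ERBB2 and AREG in dIDR3 cells. Those neighbours are not ordered. TGFA had rank 3 in WT cells, at 21.4 ± 1.2, above ERBB2 at 16.9 ± 2.31. HBEGF had rank 6 in every group, with 5.77 ± 0.56 in WT cells and 1.42 to 1.58 as the means of the other groups.

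Summed per kilobase, the 6 ligands reached 24.7 ± 0.403 CPM per kb in Mut_IDR3, 26.7 ± 1.01 in dIDR3, 68.9 ± 5.22 in WT and 23.8 ± 1.33 in GFP cells. The 3 receptors reached 59.5 ± 0.693, 58.1 ± 0.895, 58.5 ± 5.45 and 58.3 ± 1.16 in the same groups. The mean ligand sum thus exceeded the mean receptor sum in WT cells and not in the other 3 groups. In WT libraries the ligand sums spanned 63.2 to 73.5 and overlapped the receptor sums of 53.1 to 64. The order is therefore given for the means, and the sums were not compared within single libraries. The receptor sums spanned 59 to 60.3 in Mut_IDR3, 57.2 to 58.9 in dIDR3, 53.1 to 64 in WT and 57.5 to 59.6 in GFP libraries, so that the groups overlapped except Mut_IDR3 and dIDR3. AREG made up 59.8 ± 2.42% of the ligand sum in WT cells and 48.5 to 50.9% in the means of the other groups, and TGFA made up 31.1 ± 1.74% in WT cells and 42.9 to 44.7% elsewhere. These are levels of RNA, and no protein was measured.

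**Figure D3:**
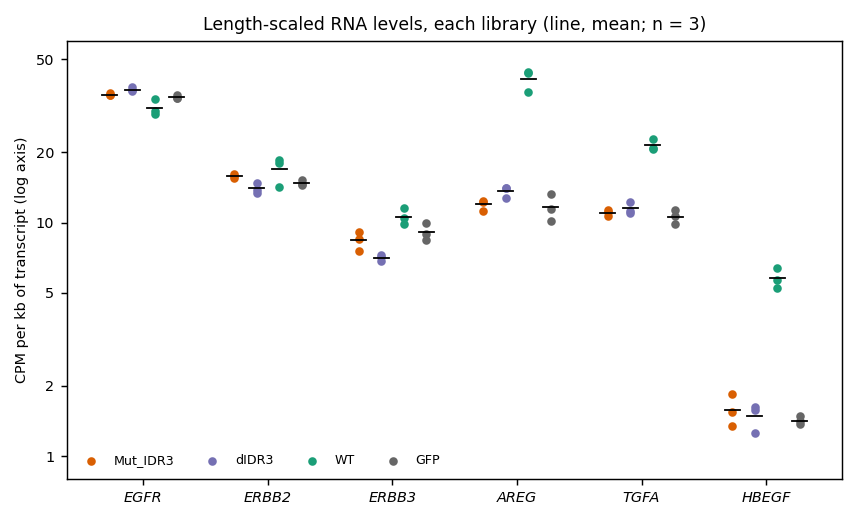
Level per kilobase of transcript (vertical axis, CPM per kb, log scale) of the 6 genes above 1 CPM in every library, with points for libraries and lines for means, coloured by group. AREG in WT libraries lies above EGFR in WT libraries, at 36.3 to 43.9 against 29.1 to 33.9 CPM per kb, and in the other groups AREG lies below EGFR and ERBB2 on average.

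The remaining genes of the pathway were read from 6 lists of 56 genes, of which 51 were tested. In WT against GFP cells 18 rose and 17 fell, with a median of 0.07, where 27.7% and 27.1% of all genes tested were called. Mut_IDR3 against GFP cells gave 6 higher and 7 lower, beside 11.2% and 9.85% of all genes. In dIDR3 against GFP cells 8 were higher and 11 lower, beside 15.6% and 13.4% of all genes. In Mut_IDR3 against WT cells 13 were called in each direction, beside 23.2% higher and 20.9% lower of all genes, and in dIDR3 against WT cells 17 were higher and 18 lower, beside 27.2% and 25.0%. In Mut_IDR3 against dIDR3 cells 6 were higher and 1 was lower, beside 5.54% and 5.24% of all genes.

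Of the other ligands and the fourth receptor, most were silent. ERBB4 and NRG3 had no count in any library, which allows up to 0.0066 CPM over all libraries at 3 counts, and EGF had 4 counts in 1 Mut_IDR3 library and none elsewhere. NRG4 had 2 to 16 counts a group. NRG1, a neuregulin that binds ERBB3, was abundant: it had 155, 147 and 150 CPM in Mut_IDR3 libraries, 138, 132 and 136 in dIDR3 libraries, 112, 113 and 97.2 in WT libraries and 131, 140 and 136 in GFP libraries. The WT libraries were the lowest, without overlap. NRG1 fell by 0.34 in WT against GFP cells (adjusted p = 0.000165), and was higher than WT by 0.49 in Mut_IDR3 and by 0.34 in dIDR3 cells (adjusted p = 1.01e-05 and 0.00021). With the GC trend removed, its change was -0.13 in WT against GFP cells (adjusted p = 0.0329) and 0.17 in dIDR3 against WT cells (adjusted p = 0.00539). The same removal turned 2 comparisons of Mut_IDR3 cells into calls. Against GFP cells NRG1 went from 0.15 (adjusted p = 0.0758) to 0.25 (adjusted p = 0.00258). Against dIDR3 cells it went from 0.16 (adjusted p = 0.0997) to 0.20 (adjusted p = 0.00971). NRG2, also a neuregulin, rose by 2.47 in WT against GFP cells (adjusted p = 0.00949) at low levels, 0.776 ± 0.215 against 0.131 ± 0.139 CPM (SD, n = 3 each). Its 3 GFP libraries had 4, 0 and 12 counts, and its change was 1.94 without GFP replicate 2 and 3.64 without GFP replicate 3, the lowest and highest of 23 alternatives, all called.

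Among 9 genes of ligand shedding, of which 8 were tested, 2 rose and 2 fell in WT against GFP cells. Of all genes tested, 27.7% were called higher and 27.1% lower in that comparison. ADAM10, a protease that releases EGF and betacellulin, had 48.3, 52.8 and 61.5 CPM in WT libraries and 99.8, 103 and 108 in GFP libraries. Against GFP cells its log2 change was -0.93 in WT cells (adjusted p = 1.54e-07), -0.38 in Mut_IDR3 cells (adjusted p = 0.00402) and -0.41 in dIDR3 cells (adjusted p = 0.00104). With the GC trend removed, the changes in the mutants were -0.11 in Mut_IDR3 cells, no longer called (adjusted p = 0.248), and -0.24 in dIDR3 cells (adjusted p = 0.00783). ADAM9, a related protease, fell by 0.72 in WT cells (adjusted p = 3.46e-06). Its changes against GFP were -0.43 in Mut_IDR3 and -0.25 in dIDR3 cells (adjusted p = 0.00262 and 0.0292). With the GC trend removed, they were -0.20 (adjusted p = 0.0258) and, no longer called, -0.10 (adjusted p = 0.181). ADAM15, another member of the family, rose by 0.55 (adjusted p = 1.51e-05), and FRMD8, which stabilises the iRhom partners of ADAM17, rose by 0.47 (adjusted p = 0.000364). FRMD8 was also called higher against GFP in Mut_IDR3 and dIDR3 cells, at 0.41 and 0.56 (adjusted p = 0.00608 and 0.0003). ADAM17, the main sheddase of AREG, HBEGF and TGFA, was singled out after its values were seen: at -0.12 (adjusted p = 0.133) it was not called in WT against GFP cells. ADAM17 was called lower in dIDR3 against GFP cells, at -0.20 (adjusted p = 0.0238). In Mut_IDR3 against GFP cells it was not called, at -0.18 (adjusted p = 0.0587). ADAM12 had no count in Mut_IDR3 libraries and sums of 20, 2 and 4 counts in dIDR3, WT and GFP cells.

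Of the 15 receptor brakes, all tested, 6 rose and 5 fell in WT against GFP cells, beside 27.7% and 27.1% of all genes. ERRFI1, which encodes MIG6, an inhibitor that binds the EGFR kinase domain and is itself induced by EGFR signalling, had 22.8, 19.2 and 23.6 CPM in Mut_IDR3 libraries, 21.5, 22.2 and 21.8 in dIDR3 libraries, 40.1, 45.3 and 45.1 in WT libraries and 19.9, 19.7 and 20.7 in GFP libraries. As for AREG, the WT libraries stood apart from all others. ERRFI1 rose by 1.11 in WT against GFP cells (adjusted p = 7.43e-08), and was at 0.12 in both mutants against GFP (adjusted p = 0.35 for Mut_IDR3 and 0.326 for dIDR3). SH3KBP1, an adaptor that links CBL to the endocytosis of EGFR, rose by 0.83 in WT cells (adjusted p = 2.47e-08). It was also called higher in dIDR3 against GFP cells, at 0.18 (adjusted p = 0.0259). SOCS4 and SOCS5, which promote EGFR degradation, fell, with changes of -1.12 and -1.01 (adjusted p = 1.68e-05 and 1.63e-05). SOCS4 was also called lower in Mut_IDR3 against GFP cells, at -0.48 (adjusted p = 0.0338). With the GC trend removed, that change was -0.18 and was not called (adjusted p = 0.32).

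Of the 7 adaptors, 3 rose and 2 fell in WT against GFP cells, beside 27.7% and 27.1% of all genes. GAB2, a docking protein for PI3K, had 9.9, 8.4 and 9.42 CPM in Mut_IDR3 libraries, 6.56, 7.95 and 6.02 in dIDR3 libraries, 32.6, 26.9 and 34.5 in WT libraries and 7.27, 7.85 and 8.16 in GFP libraries. It rose by 2.01 in WT against GFP cells (adjusted p = 9.64e-09), about as far as HBEGF, with no overlap between WT and any other group. SOS1 and SOS2, exchange factors that load RAS, fell, with changes of -0.79 and -0.83 (adjusted p = 1.57e-05 and 9.96e-05), and SHC1, an adaptor between receptors and GRB2, rose by 0.38 (adjusted p = 0.000129). Against GFP cells, SOS1 was also called lower in Mut_IDR3 (-0.35, adjusted p = 0.0287) and SOS2 in dIDR3 cells (-0.42, adjusted p = 0.0281). With the GC trend removed, neither of these was called (adjusted p = 0.659 and 0.0633).

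Of the 10 genes of the ERK arm, 4 rose and 2 fell in WT against GFP cells, beside 27.7% and 27.1% of all genes. The kinase genes ARAF and MAP2K1 rose by 0.72 and 0.51 (adjusted p = 6.46e-07 and 7.38e-07), and NRAS, which encodes a RAS GTPase, fell by 0.52 (adjusted p = 9.42e-06). Against GFP, Mut_IDR3 cells had calls for ARAF (0.21), MAP2K1 (0.35) and NRAS (-0.21), and dIDR3 cells for ARAF (0.20). With the GC trend removed, only MAP2K1 of these kept its call (0.27, adjusted p = 0.000986). NRAS was then called higher in dIDR3 against GFP cells, at 0.13 (adjusted p = 0.0349). Of the 9 genes of the PI3K arm, 2 rose and 5 fell in WT against GFP cells, beside the same 27.7% and 27.1% of all genes. PIK3CA, a catalytic subunit of PI3K, fell by 0.94 (adjusted p = 2.72e-05). It was also called lower against GFP in Mut_IDR3 and dIDR3 cells, at -0.64 and -0.55 (adjusted p = 0.00426 and 0.00567). The regulatory subunit PIK3R1 fell by 0.82 (adjusted p = 0.000149). AKT1 rose by 0.30 (adjusted p = 0.00138).

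Several pathway genes that fell had AT-rich transcripts, with a GC content of 35.3% for SOCS4, 34.8% for PIK3CA and 38.3% for ADAM10, where the median over genes tested was 48.8%. With the GC trend removed, 17 of the 51 were called higher and 14 lower in WT against GFP cells. The share of all genes called in that fit was not computed, so these counts are not set against it. The changes were then -0.32 for ADAM10, -0.29 for PIK3CA and -0.48 for SOCS4 (adjusted p of 0.00059, 0.0333 and 0.00356). FRMD8, SOS1, SHC1, NRAS and AKT1 were no longer called, with changes of 0.15, -0.14, 0.06, 0.08 and -0.02. ERRFI1 at 1.37, SH3KBP1 at 0.82 and GAB2 at 1.75 kept their calls. The other named genes did too, at smaller changes: -0.18 for ADAM9, -0.36 for SOCS5, -0.35 for SOS2, -0.35 for PIK3R1, 0.22 for ADAM15, 0.41 for ARAF, 0.34 for MAP2K1 and 2.13 for NRG2.

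**Figure D4:**
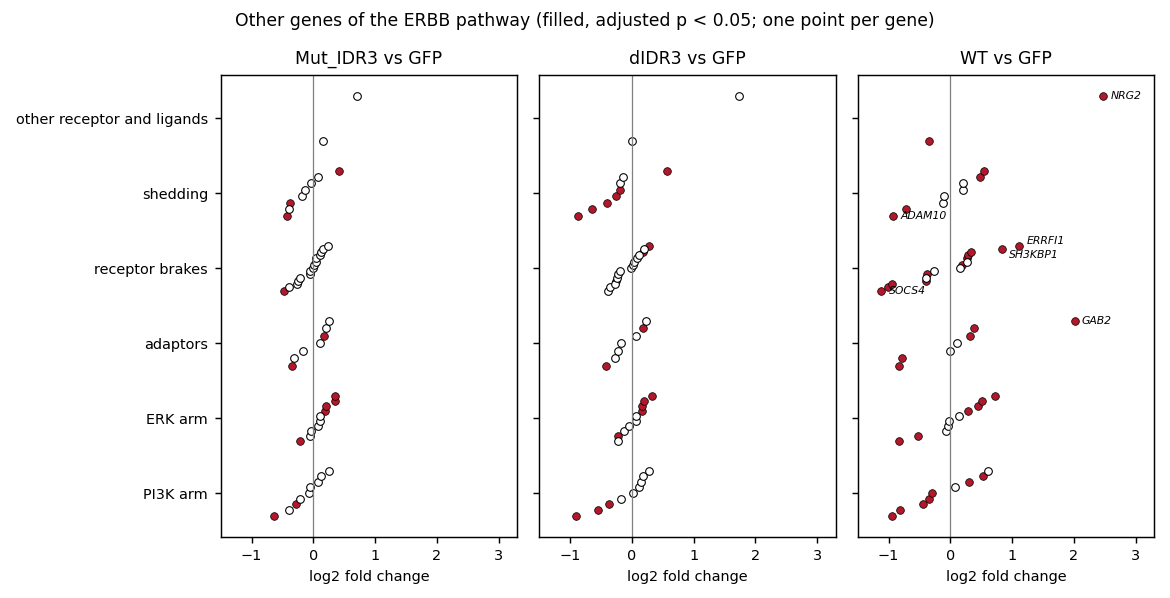
Log2 fold change against GFP (horizontal axis) of the 51 tested genes of the 6 pathway lists (vertical axis), for Mut_IDR3, dIDR3 and WT cells; each point is a gene and filled points have an adjusted p under 0.05. In WT cells GAB2, ERRFI1 and SH3KBP1 lie to the right and ADAM10 and SOCS4 to the left, and most points of the mutants lie closer to 0.

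The genes whose pattern over the 12 libraries was most like HBEGF were NFKBIA, SLC2A3 and ZFP36, with root mean square differences of 0.16, 0.17 and 0.17 between centred log2 CPM values, among 12194 genes. HBEGF was the ligand with the widest range of group means, 2.00 on that scale. NFKBIA, which encodes an inhibitor of NF-kB, had 21.3 ± 0.56 CPM in Mut_IDR3, 20.4 ± 1.32 in dIDR3, 85.2 ± 0.662 in WT and 17.9 ± 0.614 in GFP cells (SD, n = 3 each). The glucose transporter gene SLC2A3 had 38.3 ± 1.32, 32.4 ± 0.459, 116 ± 2.8 and 31.8 ± 3.15 CPM in the same groups, and ZFP36, whose product destabilises AU-rich mRNAs, had 25.2 ± 0.412, 23.7 ± 0.392, 101 ± 4.49 and 22.9 ± 0.55. For ERBB3, with a range of 0.58, the closest genes were ABHD14B at 0.07, BCAS3 at 0.08 and MAPK13, a p38 kinase, at 0.09. The levels of ABHD14B were 62.1 ± 3.12 CPM in Mut_IDR3, 54.4 ± 1.56 in dIDR3, 82.9 ± 4.31 in WT and 69.6 ± 3.54 in GFP cells.

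**Figure D5:**
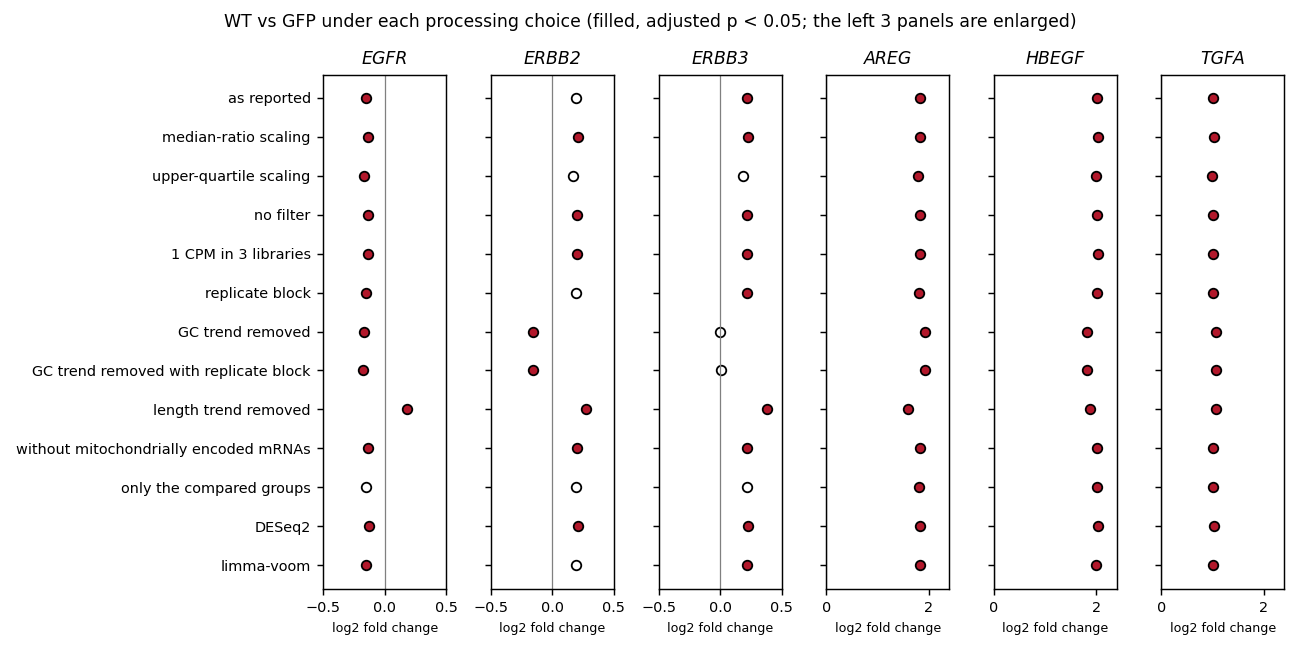
Log2 fold change of WT against GFP (horizontal axes, the 3 receptor panels enlarged) for 6 genes under each way of processing (vertical axis), with filled points at an adjusted p under 0.05. AREG, HBEGF and TGFA keep to 1.60 to 1.93, 1.82 to 2.08 and 0.96 to 1.07 over all 24 alternatives, of which those that leave out a library are not drawn, while EGFR turns to 0.18 with the length trend removed and ERBB2 to -0.16 with the GC trend removed.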

How the data were processed

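Per the labels' protocols, RNA was prepared with an RNeasy kit and libraries with a SMARTer mRNA kit. Per the submitters' processing notes, the tools were Trim Galore, HISAT2 and StringTie, on GRCh38/hg38. The counting program, annotation release and strand setting are not given in the sources used here. The authors deposited raw counts for 24302 features in 12 libraries, and these were used as deposited.

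Genes were kept by filterByExpr (14792), scaled by TMM and tested with edgeR 4.0.16 in R 4.3.3, using a quasi-likelihood F test on all 4 groups at once (8 residual degrees of freedom) and with p-values adjusted by Benjamini-Hochberg over all genes tested in a comparison. A gene was called at an adjusted p under 0.05. With 3 libraries a group, an exact permutation test reaches p = 0.1 at best. The code was tested on simulated counts. Coordinates, transcript lengths and GC content came from GENCODE v29 and promoters from RefSeq. Of the genes tested, 12724 (86%) had a GC value, as did all 9 members. The 0 of a group without counts was set to a floor of 3 counts over the group. Motifs were searched in the 250 bases before each start.

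The members and lists were chosen with earlier results of these data known. All 9 members are named, with up to 4 genes of each pathway list with the lowest adjusted p in WT against GFP cells, any listed gene with no counts in a group, and the 3 genes nearest in pattern to the receptor and to the ligand with the widest range of group means and at least 5 CPM in the highest group. Some genes that this rule names are not reported here. Alternatives were 2 other scalings, no filter, at least 1 CPM in 3 libraries, DESeq2 1.42.0, limma-voom (limma 3.58.1), only the groups compared, the replicate number as a block, GC or length trends removed over 20 bins of genes, and each library left out. The fit without mitochondrially encoded mRNAs was added after the data were seen.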

Additional observations from a re-analysis of the deposited data

How the results depend on the processing

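Of 999 values of single members under alternatives, 930 kept their direction and side of the threshold, 21 lost a call, 18 gained one and 30 changed direction. The cause was not tested. AREG, HBEGF and TGFA kept their calls for WT over GFP cells and for both mutants below WT cells in 24 of 24 alternatives. In WT against GFP cells, the members called higher were 3 with the GC trend removed or with only the compared groups, 5 with DESeq2 and 6 with the length trend removed. They were 3 to 5 when single libraries were left out. The members called lower there were 2 with the GC trend removed, 0 with the length trend removed or with only the compared groups, and 0 to 1 when single libraries were left out. EGFR was at 0.18 with the length trend removed and ERBB2 at -0.16 with the GC trend removed. In Mut_IDR3 against GFP cells, 1 member was called higher with the length trend removed, where AREG was at -0.01; ERBB2 was at -0.05 with the GC trend removed; leaving out libraries gave AREG -0.05 to 0.13 and TGFA -0.01 to 0.09. In dIDR3 against GFP cells, 2 members were called lower with the GC trend removed, and 1 was called higher with the length trend removed and 0 to 1 when libraries were left out. There HBEGF was at -0.02 with the GC trend removed and at -0.03 to 0.15 when libraries were left out, and BTC was at -0.01 with upper-quartile scaling, 0.00 without the filter, -0.01 with the length trend removed, 0.00 with DESeq2 and -0.57 to 0.97 when libraries were left out. In Mut_IDR3 and in dIDR3 against WT cells, 0 members were called higher with the length trend removed. With the GC trend removed, ERBB2 was at 0.11 and BTC at -0.25 in Mut_IDR3 against WT cells, and BTC was at -0.39 to 0.44 when libraries were left out. In Mut_IDR3 against dIDR3 cells, 2 members were called higher with only the compared groups, 1 with DESeq2 and 0 to 1 when libraries were left out, where HBEGF was at -0.03 to 0.19 and TGFA at -0.08 to 0.00.

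Replicate numbers did not pair the samples: 2 of 18 same-number pairs had a correlation of deviations over 0.1, with a range of -0.17 to 0.21. With the replicate number as a block, 4 members were called higher and 1 lower in WT against GFP cells, and the counts of the other comparisons did not change either. With the GC trend removed and the replicate block, 2 members were called lower in WT against GFP cells and 2 in dIDR3 against GFP cells, ERBB2 was at -0.16 in WT and -0.05 in Mut_IDR3 against GFP and 0.11 in Mut_IDR3 against WT cells, HBEGF was at -0.03 in dIDR3 against GFP and BTC at -0.17 in Mut_IDR3 against WT cells. The depth limits BTC, EPGN and EREG, with at most 49 counts a group.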
